A study of Mus musculus with 6 samples.

Results

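The 8 genes Dusp1, Dusp2, Dusp4, Dusp5, Dusp6, Dusp7, Dusp10 and Dusp16 encode dual-specificity phosphatases of the MAP kinase phosphatase class. Their loci were read in 6 lists of ChIP-seq peaks from mouse macrophages, and a peak was counted for a gene when the deposited annotation named that gene as the nearest one. This gave 207 of 134964 peaks in the 6 lists. Merged where peaks touched, they formed 95 of 60856 regions. The nearest gene is a matter of distance, and a peak assigned to a gene need not act on it.

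MAP kinase phosphatases remove phosphate from the threonine and the tyrosine that switch on the kinases ERK, JNK and p38. In macrophages many of them are made after an inflammatory signal and end the signal that induced them. ERK and JNK act on AP-1, the family of dimeric factors to which JUNB belongs, so these phosphatases limit signals that reach AP-1.

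The cells were macrophages grown for 6 days from the bone marrow of Wt mice, aged 8 to 12 weeks, in L929 supernatant, which supplies the growth factor MCSF. One group was left without IL-4 and is labelled veh, read here as vehicle, and the other had 1 h of IL-4 (20 ng/ml). DSG and formaldehyde cross-linked the chromatin, and antibodies to JUNB, IRF8 and C/EBPα were used in separate samples. These are factors that occupy macrophage enhancers before a signal comes. The design asks how their binding changes soon after IL-4, a cytokine that activates STAT6. Each factor had 1 sample per condition, so no value has a replicate, no spread can be given and no test was made. The read depth is unknown, and the labels name a pair of library kits without saying which sample had which. An effect of IL-4 and a difference between libraries therefore cannot be told apart at any locus.

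The JUNB lists held 3940 control and 2325 IL-4 peaks, the IRF8 lists 37525 and 42076, and the C/EBPα lists 24486 and 24612. The peak score, the deposited measure of strength, has no stated unit, so a ratio of scores is not a fold of binding. Of 8 names of macrophage genes, 6 had C/EBPα peaks and 6 had IRF8 peaks. Of 3 T cell genes, 0 had C/EBPα peaks and 1 had IRF8 peaks, while of 3 B cell genes 3 had C/EBPα peaks and 2 had IRF8 peaks. A peak is not expression, so these counts only describe the lists.

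Sequences are shown for 4 of the 7 regions where all 3 factors had a peak, because JUNB was found at the phosphatase loci in such regions alone, and for the Dusp6 promoter, whose IRF8 peak was listed after IL-4 only. Each is 200 bases of the plus strand of GRCm38.p6, the assembly that mm10 names. The first 4 are centred on the JUNB peak. The promoter ends at the base before the RefSeq start of Dusp6. Capitals mark matches, on either strand, to AP-1 (TGANTCA), C/EBP (TTGCNNAA), IRF (GAAANNGAA), the composite ETS-IRF element (GGAANNGAA) and a STAT6-type site (TTC, any 4 bases, GAA). None of these stretches overlaps an annotated exon. The 4 regions shown include all 3 whose stretch held an AP-1 match, and the stretches left out held no AP-1 match.
Dusp1, 6.4 kb upstream, chr17:26514724-26514923: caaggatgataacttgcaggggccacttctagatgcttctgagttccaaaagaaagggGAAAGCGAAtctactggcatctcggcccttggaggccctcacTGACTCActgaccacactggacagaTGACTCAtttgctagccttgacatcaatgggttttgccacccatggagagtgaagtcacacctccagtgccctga
Dusp4, 44.6 kb upstream, chr8:34762866-34763065: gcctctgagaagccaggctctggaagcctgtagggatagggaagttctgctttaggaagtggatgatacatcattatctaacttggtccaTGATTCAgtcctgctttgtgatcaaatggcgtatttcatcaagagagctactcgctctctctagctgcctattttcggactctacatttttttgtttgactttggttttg
Dusp6, 12.3 kb upstream, chr10:99250841-99251040: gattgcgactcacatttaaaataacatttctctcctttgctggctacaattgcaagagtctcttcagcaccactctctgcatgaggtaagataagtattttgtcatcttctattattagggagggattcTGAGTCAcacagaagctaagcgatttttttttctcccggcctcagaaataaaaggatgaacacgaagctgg
Dusp6, 162.3 kb downstream, chr10:99425368-99425567: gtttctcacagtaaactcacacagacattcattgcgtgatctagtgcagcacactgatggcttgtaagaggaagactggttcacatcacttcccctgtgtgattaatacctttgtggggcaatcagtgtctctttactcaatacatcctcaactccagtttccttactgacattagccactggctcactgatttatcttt
Dusp6 promoter, chr10:99263031-99263230: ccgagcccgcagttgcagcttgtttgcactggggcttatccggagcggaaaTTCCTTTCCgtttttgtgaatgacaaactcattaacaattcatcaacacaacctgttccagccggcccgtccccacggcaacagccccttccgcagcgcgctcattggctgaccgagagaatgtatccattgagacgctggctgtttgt

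The Dusp1 stretch held the AP-1 letters at 2 places, the second of them at position 126 counted from the first base, and an IRF match at position 59. The Dusp4 stretch held the AP-1 letters at position 91 and the Dusp6 stretch at 12.3 kb at position 130. In all, 3 of the 7 stretches centred on a JUNB peak held an AP-1 match, and the share over all JUNB peaks was not counted. The Dusp6 stretch at 162.3 kb, under the JUNB peak with the highest score at these loci, held none of the letters searched. A match describes the letters only, and no match says nothing about binding.

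By nearest gene, which depends on the space around each gene, Dusp6 had 33 regions, Dusp4 17, Dusp10 11, Dusp7 10, Dusp1 9, Dusp5 7, Dusp16 6 and Dusp2 2. IRF8 had a peak in 74 of the 95 regions, C/EBPα in 48 and JUNB in 7. IRF8 was alone in 47 regions (49.5%), C/EBPα was alone in 21 (22.1%), both were found without JUNB in 20 (21.1%), and all 3 factors met in 7 (7.37%). Over all regions of the series the shares in the same order were 49.7%, 17.3%, 25.1% and 5.56%. JUNB was never alone or with a single partner at these loci. Its 7 regions belonged to Dusp1 (3), Dusp4 (2) and Dusp6 (2).

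**Figure D1:**
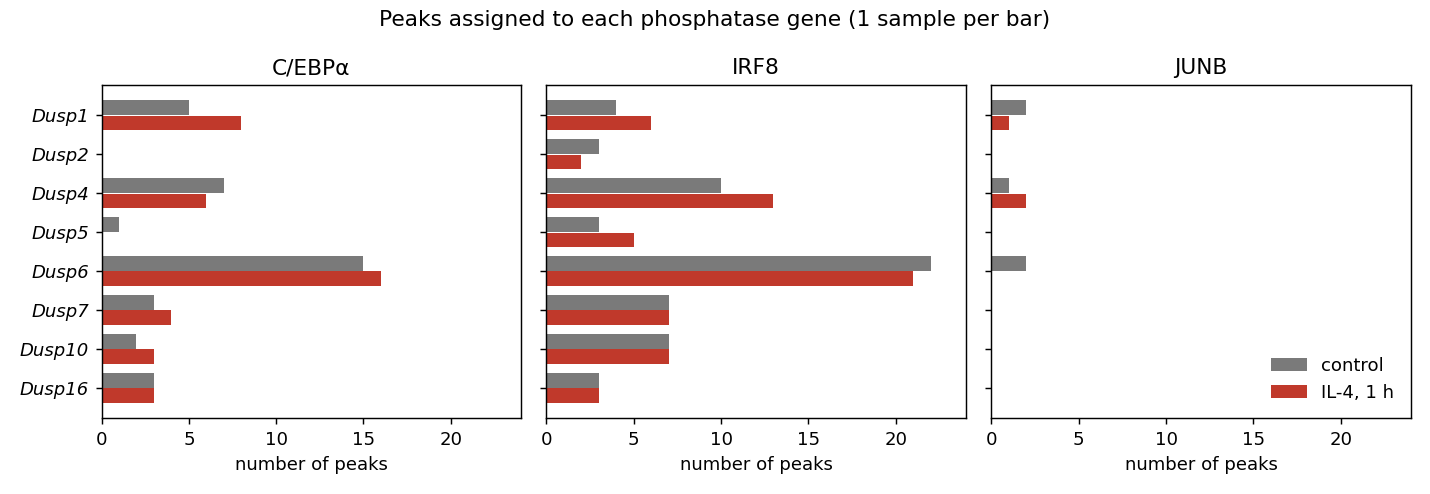
Number of peaks (horizontal axis) assigned to each phosphatase gene in the C/EBPα, IRF8 and JUNB lists, with grey bars for control and red bars for IL-4 at 1 h; each bar is 1 sample. Dusp6 had the longest bars, with 22 control and 21 IL-4 peaks for IRF8, and JUNB bars appear for Dusp1, Dusp4 and Dusp6.

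Most of these sites lay outside genes. Of the 207 peaks, 165 (79.7%) were annotated as intergenic and 35 (16.9%) as intronic, against 43.0% and 45.3% over all lists. Only 5 peaks (2.42%) were annotated as promoter, against 7.59%. The median distance to the transcription start site (TSS) was 35568 bp, against 20490 bp. The regions reached from 77.9 kb upstream, at Dusp4, to 240.4 kb downstream, at Dusp10. Counted instead in a window of 50 kb on both sides of the TSS, Dusp1, Dusp4, Dusp6 and Dusp7 each had 12 regions, more than 93.9% of 21000 protein-coding genes, whose median was 4. Dusp5 had 10, Dusp16 8, Dusp10 7 and Dusp2 4. In equal windows, then, Dusp6 did not stand above Dusp1, Dusp4 or Dusp7.

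**Figure D2:**
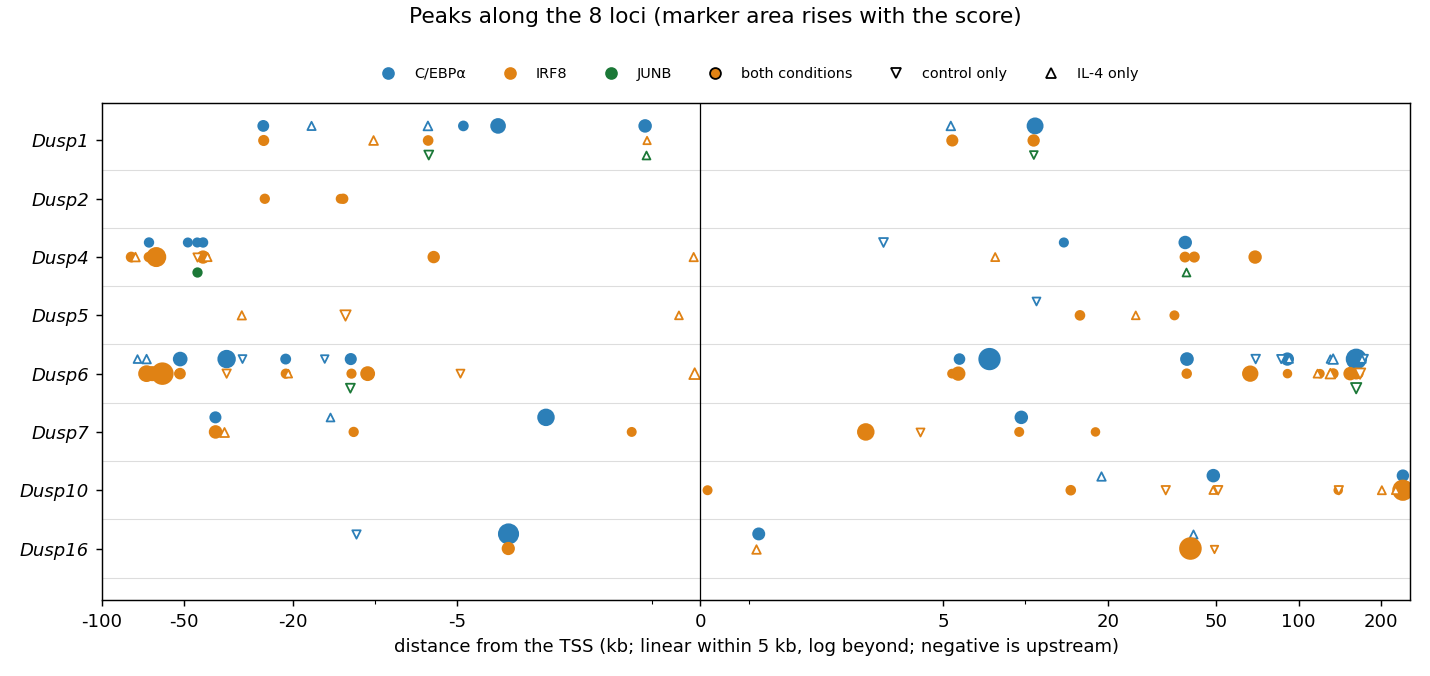
Peaks of the 8 loci by distance from the TSS (horizontal axis, kb, linear within 5 kb and logarithmic beyond), with marker area growing with the score, filled circles for peaks in both conditions and open triangles for peaks of 1 condition. Dusp6 carries peaks from 73.9 kb upstream to 172.8 kb downstream, and the promoter marks at Dusp4, Dusp5 and Dusp6 are open IL-4 triangles.

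Between control and IL-4, a peak was called shared when it overlapped a peak of the other list of its factor by at least 1 bp. For C/EBPα, 8 of 36 control peaks (22.2%) were in control only, against 21.4% of all control peaks, and 12 of 40 IL-4 peaks (30%) were in IL-4 only, against 22%. For IRF8, 10 of 59 control peaks (16.9%) were in control only, against 21.4%, and 18 of 64 IL-4 peaks (28.1%) in IL-4 only, against 30.4%. For JUNB, 4 of 5 control peaks (80%) were in control only, against 64.2%, and 2 of 3 IL-4 peaks (66.7%) in IL-4 only, against 39.2%. The shares for IRF8 lay near or below those of its whole lists. The JUNB shares rest on 8 peaks, and the whole JUNB control list also had a higher control-only share than the other two.

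For C/EBPα and IRF8, peaks found in 1 condition had lower median scores than shared ones. For C/EBPα their median was 5.87 (2.36 to 11.6), against 22.7 for the control scores of shared peaks at these loci. For IRF8 the medians were 5.95 (2.36 to 18.1) and 9.05. The 6 JUNB peaks of 1 condition had a median of 6.48 (4.01 to 15.8), against 6.68 for the control score of the single shared peak. A shared peak was called higher or lower when its scores differed by 1.5 times or more. Of 28 shared C/EBPα peaks, 6 were higher after IL-4 and 7 lower, where 17.7% and 17.8% of all shared C/EBPα peaks were. Of 46 shared IRF8 peaks, 11 were higher and 8 lower, where 23.6% and 17.5% of all were. The single shared JUNB peak was neither, where 9.6% of all were higher and 47.9% lower. The median log2 score ratio was -0.28 for C/EBPα, against 0.00 over all its shared peaks. It was 0.00 for IRF8, against 0.08. For C/EBPα, 18 of 28 shared peaks scored lower after IL-4 and 10 higher, while IRF8 split into 23 and 23. The median score of the whole list after IL-4, against control, differed by a log2 ratio of -0.34 for JUNB, -0.11 for IRF8 and 0.00 for C/EBPα. The scores below were not corrected for this shift.

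**Figure D3:**
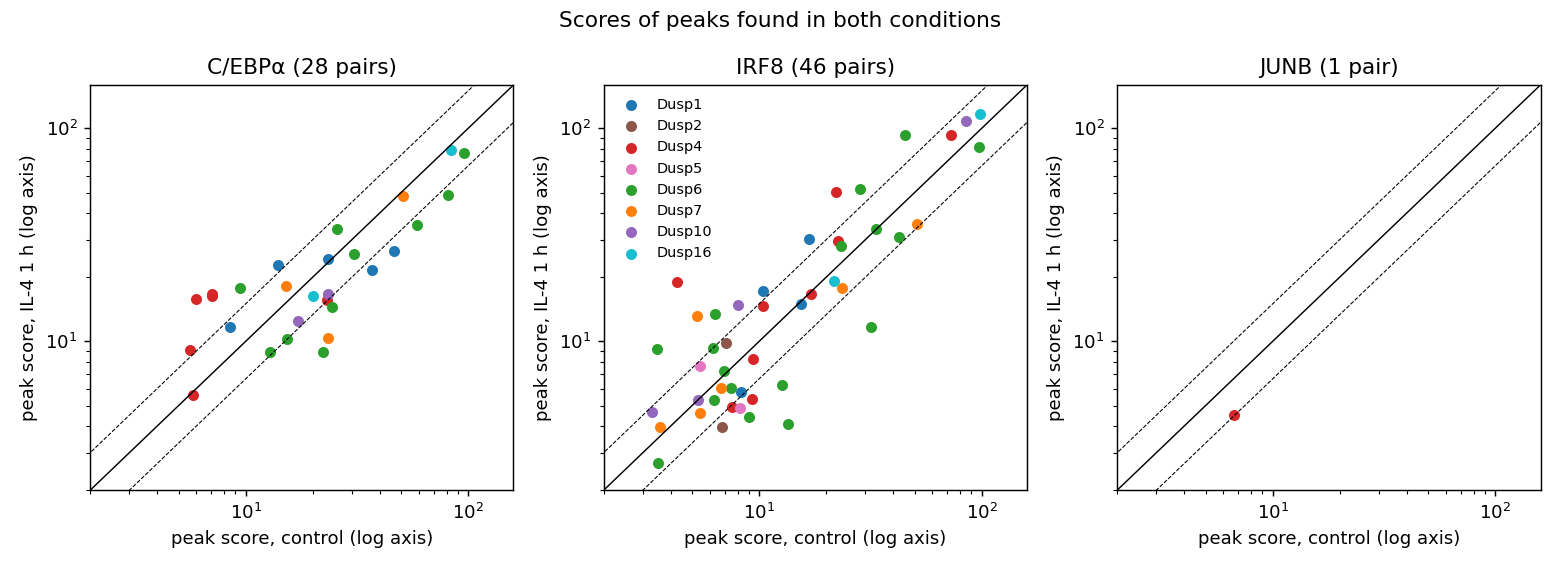
Scores of the 28 C/EBPα, 46 IRF8 and 1 JUNB peaks found in both conditions, control on the horizontal and IL-4 on the vertical axis (both logarithmic), coloured by gene, with a solid line for equal scores and dashed lines at 1.5 times. The Dusp4 points of C/EBPα lie above or on the upper dashed line in 4 of 6 cases, and those of Dusp6 fall below the lower one in 4 of 10.

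Dusp1, a nuclear phosphatase that acts mainly on p38 and JNK, is an early response gene of macrophages (chr17:26505591-26508472, minus strand). C/EBPα had 5 control and 8 IL-4 peaks there, IRF8 4 and 6, and JUNB 2 and 1. Its 9 regions lay between 25.6 kb upstream and 10.9 kb downstream, all outside the gene. The region 10.9 kb downstream (chr17:26497217-26498019) was the strongest. C/EBPα scored 46.5 in control and 26.5 after IL-4 at this site. IRF8 scored 16.7 and 30.3. Its JUNB peak, with a score of 4.01, was in control only. C/EBPα and IRF8 thus went past 1.5 times in opposite directions at 1 site. In all, 5 of the 95 regions (5.26%) had factors past their limits in opposite directions, where 4.5% of all regions did.

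At the Dusp1 region 6.4 kb upstream, the one printed with a pair of AP-1 matches, JUNB had a score of 8.82 in control and no peak after IL-4. C/EBPα had no peak in control and a score of 8.13 after IL-4. IRF8 had 8.32 and 5.79. For 2 of 3 factors, then, this region had a peak in 1 condition only. The opposite JUNB pattern was seen 1.1 kb upstream (chr17:26509419-26509747), where JUNB was listed after IL-4 only with a score of 4.21. IRF8 was also listed there after IL-4 only, with 2.36. C/EBPα was at 23.4 in control and 24.5 after IL-4.

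At Dusp1, 3 of 8 C/EBPα peaks were in IL-4 only and 0 of 5 in control only, against 22% and 21.4% over its whole lists. Of the 3, the one 6.4 kb upstream had the highest score. The highest IL-4-only score of IRF8 was 8.15, at a region 10.1 kb upstream. The C/EBPα peak 4.2 kb upstream, with a C/EBP match, scored 37.1 in control and 21.7 after IL-4. At 25.6 kb upstream both factors were higher after IL-4, C/EBPα with 14.03 and 22.8 and IRF8 with 10.4 and 17.2. Neither direction held along the whole locus.

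**Figure D4:**
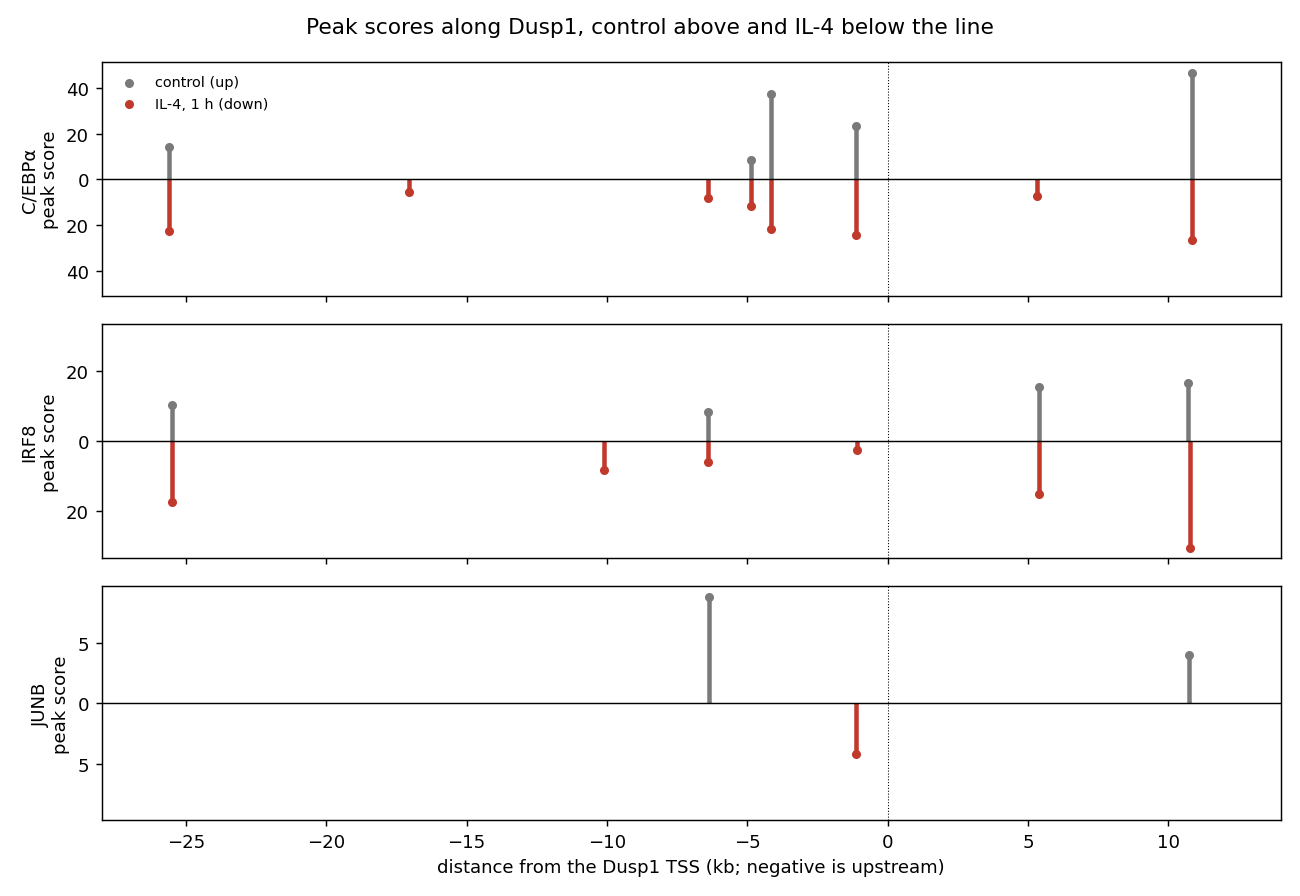
Peak scores along Dusp1 by distance from the TSS (kb), for C/EBPα, IRF8 and JUNB from top to bottom, with control drawn upwards in grey and IL-4 downwards in red. The C/EBPα score 10.9 kb downstream is 46.5 in control and 26.5 after IL-4, while the IRF8 score is 16.7 and 30.3.

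Dusp2, a nuclear phosphatase of immune cells (chr2:127336159-127338377, plus strand), had the fewest sites and no peak of C/EBPα or JUNB. IRF8 had 3 control and 2 IL-4 peaks in 2 regions, 13.2 and 25.3 kb upstream. At 13.2 kb the control scores were 5.07 and 7.11, and the single IL-4 peak over both had 9.88. At 25.3 kb, where the window held an ETS-IRF match, the score was 6.81 in control and 3.97 after IL-4. Dusp2 had no peak of 1 condition.

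Dusp4, a nuclear phosphatase that acts on ERK and JNK (chr8:34807610-34819894, plus strand), had the largest shift of C/EBPα scores among the 8 genes. The median log2 score ratio of its 6 shared C/EBPα peaks was 0.95. By 1.5 times, 4 were higher and 0 lower, where 17.7% and 17.8% of all shared C/EBPα peaks were. Those 4 had control scores of 5.60 to 7.09, below the median of 11.2 of the C/EBPα control list. The other 2 scored lower after IL-4. For its 9 shared IRF8 peaks the median was 0.36, with 2 higher and 2 lower, where 23.6% and 17.5% of all were. IRF8 had 10 control and 13 IL-4 peaks, C/EBPα 7 and 6, and JUNB 1 and 2.

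Of the 17 regions of Dusp4, 9 lay between 77.9 and 41.0 kb upstream, 5 within 13.9 kb of the TSS, and 3 from 38.4 to 69.3 kb downstream, in introns of the neighbouring gene Tnks. IRF8 had its highest score 63.0 kb upstream (chr8:34744229-34744993), at 72.9 in control and 93.3 after IL-4. The region 42.5 kb upstream (chr8:34764902-34765378) was higher for both factors after IL-4. There IRF8 scored 22.2 in control and 50.5 after IL-4. C/EBPα scored 7.09 and 16.8. Its window held an IRF match and a STAT6-type match. The next region, 41.7 kb upstream in an LTR repeat, had IRF8 scores of 4.26 and 19.0, a ratio of 4.45, which was the highest of any shared peak at these loci. The region held an IRF match too, and its control score was below the median of 10.3 of the IRF8 control list.

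At 67.1 kb upstream C/EBPα scored 7.07 in control and 16.3 after IL-4, while IRF8 scored 7.55 and 4.90. That IRF8 ratio falls within 1.5 times once the scores are divided by the list medians. This window, where IRF8 scored lower after IL-4, held an IRF match as well. At 13.9 kb downstream C/EBPα scored 5.97 and 15.7. The strongest C/EBPα site of the locus scored lower after IL-4, at 15.6 against 23.2 in control, though within 1.5 times. It lay 38.4 kb downstream in intron 20 of Tnks.

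JUNB was found at 2 Dusp4 regions. At 44.6 kb upstream, in the printed stretch with an AP-1 match, JUNB scored 6.68 in control and 4.50 after IL-4, the only JUNB peak shared between conditions at these loci. C/EBPα scored 5.83 and 5.63 there, and IRF8 had a control-only peak of 5.86. At 38.4 kb downstream JUNB was listed after IL-4 only, with 4.22. IRF8 scored 9.42 and 8.30 at that site, from peaks that overlapped only at chr8:34846073-34846086.

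The Dusp4 promoter held an IRF8 peak after IL-4 only, 133 bp upstream, with a score of 6.09. The highest IL-4-only score at the locus was 7.55, of IRF8, 75.1 kb upstream. The highest control-only score was 8.52, of C/EBPα, in intron 1 of Dusp4, 3.8 kb downstream of the TSS.

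**Figure D5:**
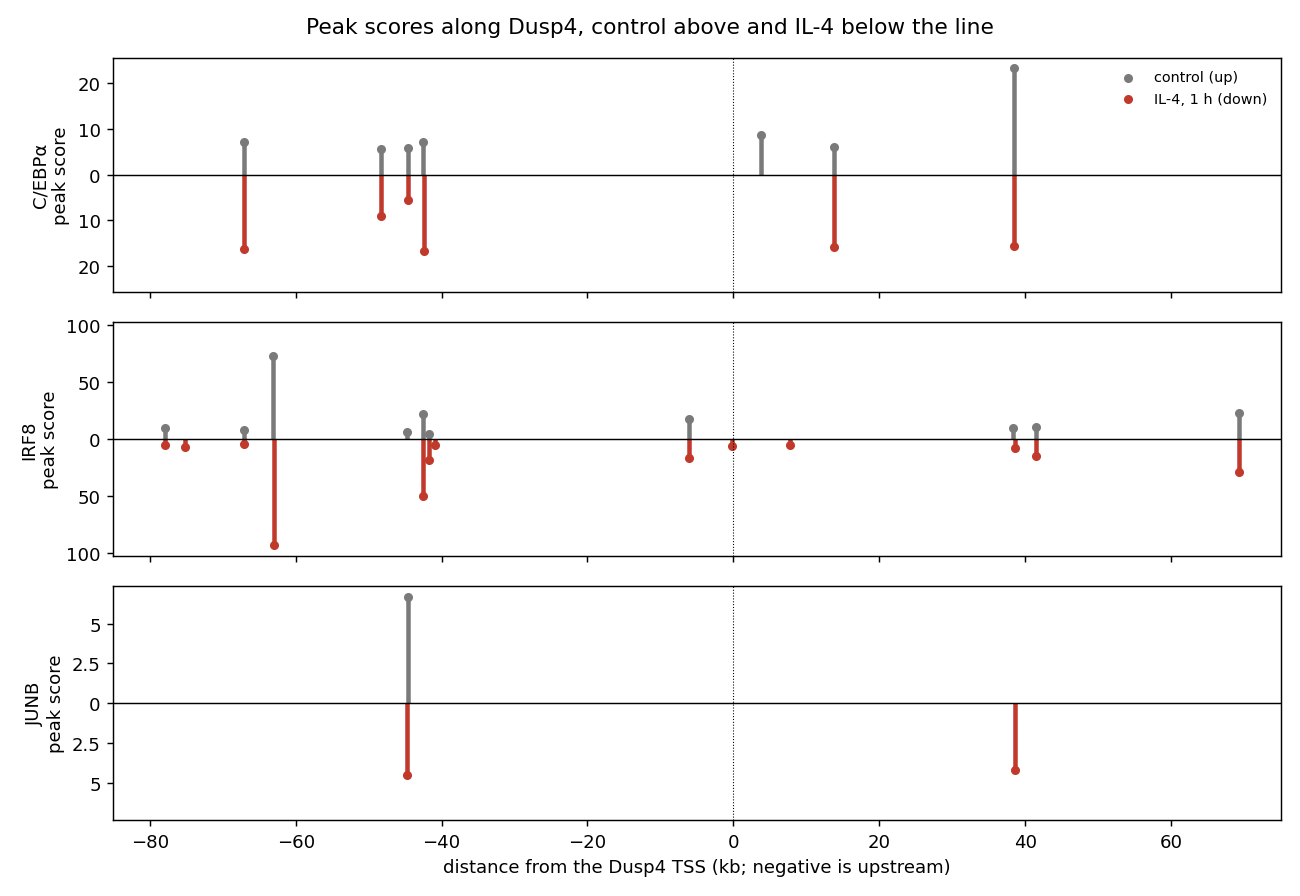
Peak scores along Dusp4 by distance from the TSS (kb), for C/EBPα, IRF8 and JUNB from top to bottom, with control drawn upwards in grey and IL-4 downwards in red. The IRF8 score 42.5 kb upstream is 22.2 in control and 50.5 after IL-4, and the C/EBPα score there is 7.09 and 16.8.

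Dusp5, a nuclear phosphatase specific for ERK (chr19:53529145-53541809, plus strand), had 9 peaks, of which 5 were in 1 condition only. IRF8 had 3 control and 5 IL-4 peaks in 6 regions, C/EBPα 1 control peak, and JUNB none. Of the IRF8 peaks, 1 of 3 was in control only and 3 of 5 in IL-4 only, against 21.4% and 30.4% over its whole lists. The highest score, 15.8, belonged to an IRF8 peak 12.9 kb upstream (chr19:53516284-53516552) that was in control only. Its window held an AP-1 and an ETS-IRF match. The C/EBPα peak, in intron 3, had a score of 4.26 and was also in control only. The promoter held an IRF8 peak after IL-4 only, 436 bp upstream of the TSS used in the lists, with 3.97. That TSS lay 173 bp from the RefSeq start. The highest IL-4-only score was 6.04, of IRF8, 30.7 kb upstream in an LTR repeat. The shared IRF8 peaks had 8.18 and 4.86 at 15.8 kb downstream and 5.44 and 7.64 at 35.1 kb downstream. At 15.8 kb the control and IL-4 peaks overlapped only at chr19:53545257-53545296.

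Dusp6, a cytoplasmic phosphatase specific for ERK and a negative feedback gene of that kinase (chr10:99263231-99267489, plus strand), held 33 of the 95 regions. Only 0.41% of the genes in the IRF8 control list had at least the 22 peaks of Dusp6, and 0.56% in the IL-4 list at least its 21. C/EBPα had 15 control and 16 IL-4 peaks, which 0.83% and 0.71% of genes reached. JUNB had 2 control peaks and 0 after IL-4. The median log2 score ratio was -0.55 over 10 shared C/EBPα peaks, of which 8 scored lower after IL-4, and -0.24 over 17 shared IRF8 peaks, of which 9 scored lower. By 1.5 times, 1 C/EBPα peak was higher and 4 lower, where 17.7% and 17.8% of all shared C/EBPα peaks were. Of the IRF8 peaks, 5 were higher and 4 lower, where 23.6% and 17.5% of all were.

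The highest score at Dusp6 was that of IRF8 59.9 kb upstream (chr10:99203137-99203539), at 97.8 in control against 82.1 after IL-4, over a window with an ETS-IRF match. The highest C/EBPα score was 7.4 kb downstream (chr10:99270428-99270798), with 95.7 and 76.3 and a C/EBP match. Neither passed 1.5 times. Among strong sites, IRF8 was higher after IL-4 at 68.4 kb upstream, in intron 11 of Poc1b, with 45.5 and 93.5. C/EBPα had an IL-4-only peak of 7.30 at that site, whose window held an IRF and a STAT6-type match. At 5.6 kb downstream IRF8 scored 28.4 and 51.8, while C/EBPα scored 12.8 and 8.93. At 10.6 kb upstream IRF8 went the other way, with 31.7 and 11.7.

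All 3 factors had a peak in control 162.3 kb downstream (chr10:99425289-99425704), an intergenic site, and all 3 were lower or unlisted after IL-4. C/EBPα scored 81.5 in control and 48.6 after IL-4. IRF8 scored 13.5 and 4.10. JUNB scored 15.8 in control and had no peak after IL-4. This was the one region of the 95 where 3 factors moved past their limits in the same direction, which 0.173% of all regions did in this direction, and 3.1% of those with all 3 factors. At the other JUNB site, 12.3 kb upstream with an AP-1 match in its printed stretch, JUNB scored 8.74 in control and had no peak after IL-4. C/EBPα scored 15.4 and 10.3 there, and IRF8 6.20 and 9.32.

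Peaks of 1 condition at Dusp6 numbered 11 for C/EBPα and 7 for IRF8. For C/EBPα these were 5 of 15 control and 6 of 16 IL-4 peaks, against 21.4% and 22% over its whole lists. For IRF8 they were 3 of 22 and 4 of 21, against 21.4% and 30.4%. At 130.5 kb downstream (chr10:99393607-99393944) both factors had a peak after IL-4 only, IRF8 with 12.1 and C/EBPα with 3.01, over a window with a STAT6-type match. At 133.6 kb downstream, where the window also held a STAT6-type match, C/EBPα had an IL-4-only peak of 11.6, while IRF8 scored 9.05 and 4.42. Those IRF8 peaks shared only chr10:99397005-99397057, and the C/EBPα peak did not reach the IRF8 IL-4 peak. The highest control-only scores were 15.9 for IRF8, 167.7 kb downstream, and 7.32 for C/EBPα, 69.6 kb downstream.

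The Dusp6 promoter gave the highest IL-4-only score of the 8 loci. IRF8 had no peak there in control and a score of 18.1 after IL-4, 112 bp upstream of the TSS (chr10:99262963-99263276). The median score of the whole IRF8 list after IL-4 was 9.61. No C/EBPα or JUNB peak was listed at the promoter. The printed promoter holds the ETS-IRF letters, read on the minus strand, at position 52.

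Dusp7, a cytoplasmic phosphatase that acts on ERK (chr9:106368632-106375724, plus strand), had 2 of 9 shared peaks past 1.5 times. For IRF8, 1 of 6 was higher and 0 lower, where 23.6% and 17.5% of all shared IRF8 peaks were. For C/EBPα, 0 of 3 were higher and 1 lower, where 17.7% and 17.8% of all were. IRF8 had 7 peaks in each condition and C/EBPα 3 and 4. The highest score was that of IRF8 in intron 2, 3.4 kb downstream of the TSS (chr9:106371848-106372232), at 51.4 in control against 35.6 after IL-4. C/EBPα scored 51.1 and 48.0 at 3.2 kb upstream. The pair past that limit were IRF8 at 1.5 kb upstream, with 5.26 and 13.1, and C/EBPα at 9.7 kb downstream, with 23.3 and 10.4. The highest IL-4-only score was 9.03, of IRF8, 35.6 kb upstream in intron 10 of Poc1a. The single control-only peak, of IRF8 in intron 2, had 4.73.

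Dusp10, which acts on JNK and p38 (chr1:184034381-184075636, plus strand), had no region assigned to it upstream of its TSS. Peaks there would be counted for another gene if that gene was nearer. IRF8 had 7 peaks in each condition and C/EBPα 2 and 3. The highest score lay 240.4 kb downstream in an LTR repeat (chr1:184274713-184275129), where IRF8 scored 84.8 in control against 108 after IL-4, and C/EBPα 17.2 against 12.5. An ETS-IRF match was in that window. Dusp10 was the one gene with a promoter peak in both conditions, and IRF8 scored 5.33 and 5.31 there. The control peak was annotated to the promoter of 1700056E22Rik and the IL-4 peak to that of Dusp10. In intron 2, 14.6 kb downstream, IRF8 scored 8.00 and 14.9. The highest IL-4-only score was 6.69, of C/EBPα in intron 2, and the highest control-only score was 7.11, of IRF8, 50.7 kb downstream.

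Dusp16, which also acts on JNK and p38 (chr6:134715468-134792628, minus strand), had 6 regions by nearest gene, among them the strongest site. In the window of 50 kb on both sides of its TSS it had 8. IRF8 scored 98.7 in control and 117 after IL-4 in intron 3, 40.1 kb downstream of the TSS (chr6:134752276-134752792), the highest score of the 8 loci. C/EBPα scored 83.6 and 79.3 at 3.9 kb upstream, with IRF8 at 21.7 and 19.3. Neither site passed 1.5 times, nor did any shared peak of Dusp16. The highest IL-4-only score was 6.98, of IRF8 in intron 1, where C/EBPα scored 20.0 and 16.3. The highest control-only score was 6.29, of C/EBPα, 11.7 kb upstream.

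Promoter peaks at the 8 genes were all of IRF8. They were at Dusp4, Dusp5 and Dusp6 after IL-4 only and at Dusp10 in both conditions, and the other 4 genes had none. Over the whole lists, 2719 IRF8 peaks in control (7.25%) and 3856 after IL-4 (9.16%) were promoter peaks, so the list as a whole also had more after IL-4. The share of IL-4-only peaks among all promoter peaks was not counted. RefSeq promoters of 300 bases (GRCm38) were matched for 7 of the 8 genes, since Dusp4 had no entry in the promoter set used. Of the motifs searched, a match was found in Dusp6 alone, for ETS-IRF, which 8.24% of 32851 promoters held. AP-1, C/EBP, IRF and STAT6-type matches were in 0 of 7, and in 7.81%, 10.8%, 8.56% and 6.95% of all promoters.

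In windows of 200 bp at the centre of each of the 95 regions, AP-1 matches were in 20 (21.1%), against 14.2% of 60845 regions. The composite ETS-IRF element was in 9 (9.47%), against 16.5%. C/EBP letters were in 17 (17.9%, against 18.4%), IRF letters in 13 (13.7%, against 13.4%) and STAT6-type letters in 7 (7.37%, against 7.63%). The STAT6-type matches did not go with 1 direction. Besides the sites named above, they lay at Dusp6 30.5 and 15.3 kb upstream, where C/EBPα was in control only. Another lay at Dusp16 41.0 kb downstream, where C/EBPα was in IL-4 only. Of the 48 regions with C/EBPα, 15 held a C/EBP match. Of the 74 with IRF8, 11 held an IRF and 9 an ETS-IRF match. Of the 7 with JUNB, 4 held an AP-1 match when centred on the region rather than on the JUNB peak. Shares over all regions of each factor were not counted, so these counts by factor only describe the loci.

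Other genes of the pathway were counted in the same way. Among 12 other dual-specificity phosphatases, 4 had C/EBPα, 8 IRF8 and 2 JUNB peaks. JUNB had 3 control peaks and 1 IL-4 peak there, and 2 control-only and 0 IL-4-only peaks, against 64.2% and 39.2% over its whole lists. At 10 MAP kinase genes IRF8 had 29 and 26 peaks, C/EBPα 20 and 19, and JUNB 1 and 2. At 7 MAP kinase kinase genes IRF8 had 18 and 22, C/EBPα 11 and 13, and JUNB 2 and 3. The genes of 7 AP-1 subunits had 50 and 54 IRF8, 31 and 35 C/EBPα, and 5 and 3 JUNB peaks. JUNB had the fewest peaks in each of these groups, as it had in the whole lists, and the direction of its counts was not the same in all of them.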

How the data were processed

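The members and the lists of other genes were chosen with earlier results of these data known. Each sample gave 1 deposited peak list. According to the study's methods and the submitters' processing notes, the authors aligned reads to mm10 with BWA 0.7.10, used SAMtools 0.1.19, called peaks with MACS2 2.0.10, removed blacklisted regions and annotated with HOMER 4.2. Peaks were called per sample. The deposited peak score is used as the authors gave it, with no stated unit, and so are the distance to the TSS and the annotation.

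From these files, peaks of control and IL-4 were compared by overlap (1 bp), shared peaks were paired one-to-one by largest overlap, and a score ratio of 1.5 was the limit. The 6 lists were merged into regions, which took the highest score per sample. Coordinates are mm10, with an uncertainty of 1 bp at the start. Motifs were searched on both strands, leaving out mitochondrial regions. Every gene was described by its strongest region, its promoter peaks, its regions with peaks of 1 condition for 2 or more factors, and its strongest control-only and IL-4-only peaks. Other regions were named after their values were seen. With 1 sample per group no test was made. Alternatives changed the overlap, the score minimum, the fold, the score scaling, the ranks matched and the assignment to genes. Scripts ran in Python 3.11.15 with pandas 2.3.3 and were tested on simulated data.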

Additional observations from a re-analysis of the deposited data

Results flagged for a closer look

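At 5 regions the factors went in opposite directions between control and IL-4, with each factor past its limit (a score ratio of 1.5, or a peak in 1 condition only). Over the series this was so at 4.5% of all regions, against 5.26% here, and at 14% of the regions with 2 or more factors, against 18.5% of 27 here. With a fold of 2, the regions at Dusp1 10.9 kb downstream, Dusp4 67.1 kb upstream and Dusp6 12.3 kb upstream would no longer count. The differences between factors were not tested, since each has 1 sample per condition.

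At the Dusp1 region 10.9 kb downstream, the log2 score ratio was -0.81 for C/EBPα and 0.86 for IRF8, and a JUNB peak with a score of 4.01 was in control only. At Dusp1 6.4 kb upstream, C/EBPα had an IL-4-only peak of 8.13 and JUNB a control-only peak of 8.82. At Dusp4 67.1 kb upstream, the log2 score ratio was 1.21 for C/EBPα and -0.62 for IRF8. At Dusp6 12.3 kb upstream, it was 0.59 for IRF8, a score ratio of 1.503 just past the limit, and JUNB had a control-only peak of 8.74. At Dusp6 133.6 kb downstream, C/EBPα had an IL-4-only peak of 11.6 and the IRF8 log2 score ratio was -1.03. That IRF8 pair overlapped only at chr10:99397005-99397057, and the C/EBPα peak ended before the IRF8 IL-4 peak began.

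The number of peaks at the 8 genes after IL-4, divided by that in control, was 0.60 for JUNB, 1.08 for IRF8 and 1.11 for C/EBPα. The JUNB value rests on 5 and 3 peaks, and the whole JUNB lists went the same way, from 3940 to 2325. With the lists of a factor cut to equal length by rank, the ratio was 1 for JUNB (3 and 3 peaks), 0.98 for IRF8 (59 and 58) and 1.08 for C/EBPα (36 and 39), so the JUNB difference was gone and the IRF8 direction turned.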

How the results depend on the processing

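No paired analysis was possible because each factor had 1 sample per condition and no result came from a test. Of the alternative values of the counts and medians, 58 were the same within their limits and 18 were not. With a score of at least 10, C/EBPα peaks fell to 21 in control and 25 after IL-4, with 2 control-only and 6 IL-4-only. IRF8 then had 24 and 26, with 4 and 6, and JUNB 1 and 0, with 1 and 0. With a fold of 2 in place of 1.5, 5 shared C/EBPα and 10 shared IRF8 peaks passed, where 13 and 19 had. With an overlap of at least 50% of each peak, IRF8 had 24 control-only and 29 IL-4-only peaks. With lists cut to equal length by rank, JUNB had 3 control and 3 IL-4 peaks and IRF8 59 and 58. With genes extended by 50000 bp on both sides, JUNB had 8 control and 4 IL-4 peaks. Shares over the whole lists at these settings are not given. Scaling the scores by the list medians was tried on 32 single peaks, all of them already past 1.5 times. The list medians differed by a log2 ratio of 0.00 for C/EBPα and -0.11 for IRF8, too little to turn any of these directions. The IRF8 log2 score ratio at Dusp4 67.1 kb upstream became -0.52, within the limit of 1.5 times. Shared peaks that had not passed the limit were not tried singly. Since depth is unknown, a peak in 1 condition only says that no peak was called in the other, and for C/EBPα and IRF8 the median score of such peaks lay below that of their lists.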
